A study of Gallus gallus with 26 samples.

Results

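Transcripts of the receptors for bone morphogenetic proteins (BMPs), activins and TGF-beta were compared between the interzone and the adjacent phalange of the embryonic chick toe. The receptors were the rows of the RNA-seq table whose symbol was *BMPR1A*, *BMPR1B*, *BMPR2*, *ACVR1*, *ACVR2A*, *ACVR2B*, *TGFBR1*, *TGFBR2* or *TGFBR3*. Of these 9 symbols, 8 were found among the 15984 genes of the table, and *ACVR1* was skipped because it is not among the symbols. The RNA came from White Leghorn embryos incubated for 7.5 days and staged as HH32, with no treatment or genetic change named in the labels. Interzone (3 libraries) is the band of condensed cells at the site of the future joint in hindlimb digit 3. Phalange (3 libraries) is the proximal part of the cartilage element beside it. The methods call the libraries biological replicates, while the number and the sex of the embryos behind each RNA library are not given in the sources used here. All libraries came from bulk tissue, in which fewer cells of a type and less RNA per cell cannot be told apart.

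Ligands of this family are dimers that bring type I and type II receptors, which are all serine/threonine kinases, into a shared complex. The type II receptor phosphorylates the type I receptor, and the type I receptor then phosphorylates Smad proteins that carry the signal to the nucleus. The BMP type I receptors act on SMAD1, SMAD5 and SMAD9, and those for TGF-beta and activin act on SMAD2 and SMAD3. In the digits, GDF5 marks the forming joint and binds BMPR1B with preference, and loss of either gene in the mouse disturbs the digit skeleton.

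The RNA-seq libraries held from 12431285 to 14347148 reads on genes. The values are normalized counts, which are reads scaled by the size factor of their library. The summed level of 4 interzone markers (*GDF5*, *ENPP2*, *COL3A1*, *ERG*) was between 19535 and 99109 normalized counts in the interzone libraries and between 5280 and 8220 in the phalange libraries. The sum of 6 cartilage markers (*COL2A1*, *MATN1*, *SNAI1*, *RUNX2*, *SOX9*, *ACAN*) was between 10090 and 22472 in interzone and between 28299 and 51539 in phalange. Both sums thus separated the libraries by label. Except for *SOX9* and *ACAN*, the study reported all these markers as differing between these same libraries, so this separation is no independent check. For *SOX9* and *ACAN* the tissues overlapped. Both tissues had libraries that stood apart in other ways. The sum of 19 genes that RefSeq places on chromosome W was 365 in interzone 1 and 283 in phalange 1, against 6829 to 8686 in the other 4 libraries. The sum of 6 globin genes, which mark blood cells, was 1489 in interzone 2 and 721 in phalange 2, against 8354 to 52292 in the other 4 libraries. Both splits thus left out 1 library of each tissue, and the fold changes within the other 4 libraries are given with each receptor. Of the marker lists of other cell types, the sum of 7 skeletal muscle genes was between 1499 and 4062 in interzone and between 537 and 1902 in phalange, and that of 5 epidermal genes between 941 and 1440 in interzone and between 545 and 969 in phalange.

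All 8 receptors passed the minimum mean of 10 normalized counts, as did 11928 genes of the table. The mean over the 6 libraries was under 100 normalized counts for 4 receptors (*BMPR2*, *BMPR1A*, *TGFBR2*, *TGFBR3*) and at least 100 for the other 4. These means reflect the length of a transcript as well as its abundance, so they were not compared between genes. With limma on log2(normalized count + 1), none of the 8 receptors passed an adjusted p of 0.05 together with a log2FC beyond 0.5, and 0.0252% of all tested genes did. At an unadjusted p of 0.05 in limma, 2 of the 8 receptors were selected (*BMPR2* and *ACVR2A*), as were 6.46% of all tested genes. Of all tested genes, 3.72% passed this limit with higher and 2.74% with lower values in interzone. The quasi-likelihood test of edgeR on the reads selected the same number of receptors at that unadjusted p, against 675 of the 11928 tested genes. After adjustment edgeR called 0 receptors, against 1 of all tested genes. DESeq2 on all genes called 1 receptor, against 1.11% of all genes. The libraries of the tissues did not overlap for 2 receptors, *BMPR2* and *ACVR2A*, against 11.0% of all tested genes. The smallest p that exact permutation of 3 against 3 libraries can reach is 0.1.

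**Figure D1:**
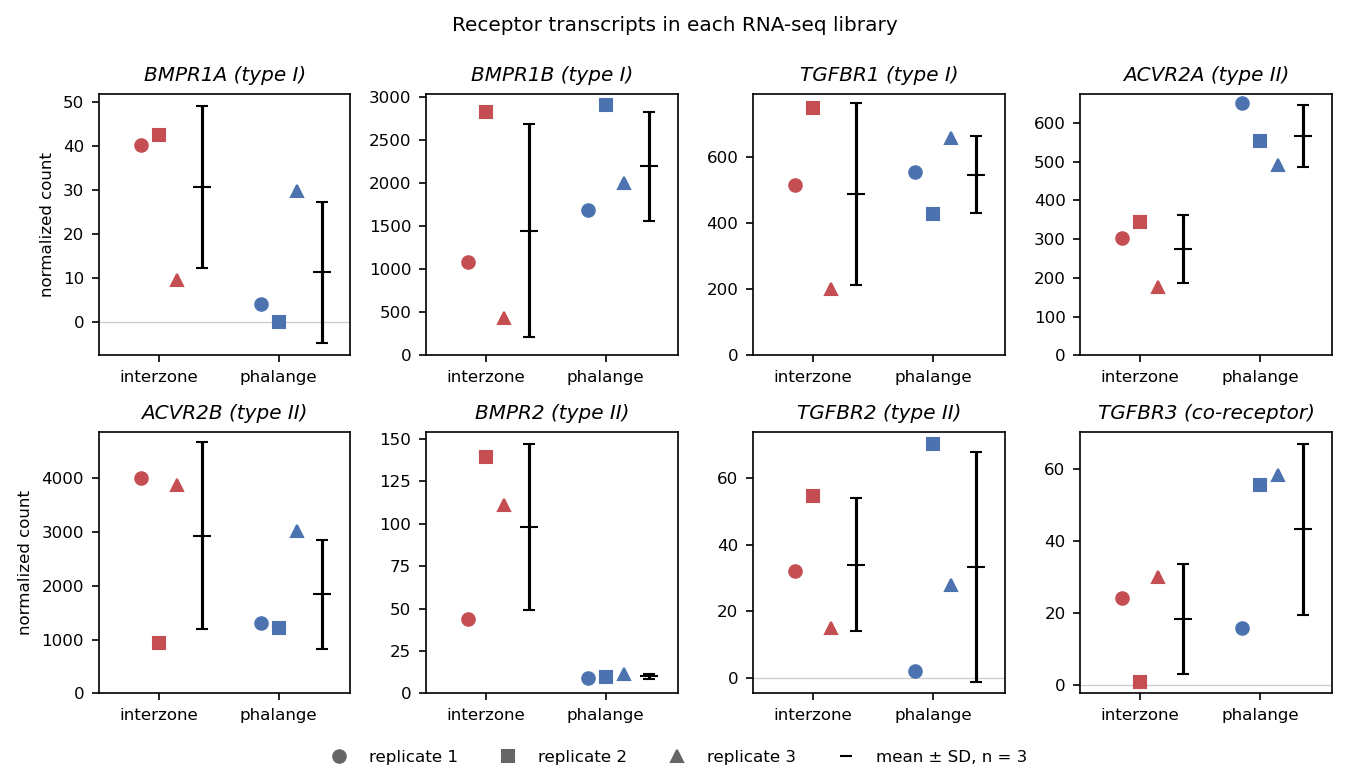
Normalized counts (y axis, linear and different in each panel) of the 8 receptors in the interzone and phalange libraries, with a marker shape for each replicate number and the mean ± SD (n = 3) beside them. The interzone libraries lie above the phalange libraries for *BMPR2* and below them for *ACVR2A*, and the tissues overlap for the other 6 receptors.

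*BMPR2*, the type II receptor that serves most BMPs and GDFs, was the receptor with the smallest limma p. It had 43.8, 139 and 111 normalized counts in interzone 1, 2 and 3, against 8.98, 9.44 and 11.5 in phalange 1, 2 and 3. The lowest interzone library lay 3.81-fold above the highest phalange library, and the phalange libraries hardly differed among themselves. The means were 98.1 ± 49.1 in interzone and 9.97 ± 1.33 in phalange (SD, n = 3 each), a ratio of 9.84. The numbers of reads behind these values were small, with 49, 135 and 118 reads in interzone and 9, 9 and 12 reads in phalange. The counting intervals at the 95% level (exact Poisson, which cover counting error only) did not meet. The lowest interzone library reached down to 32.4 normalized counts, and the highest limit of a phalange library was 20.1. These intervals take each read as independent. The libraries were amplified by PCR, and the sources used here name no removal of PCR copies from the RNA reads. The intervals may therefore be too narrow. The log2FC of *BMPR2* was 3.03 (standard error, SE, 0.83, 95% interval 1.14 to 4.91, unadjusted p = 0.00566 and limma adjusted p = 0.499). DESeq2 on all genes gave a log2FC of 3.30 (SE 0.78) and an adjusted p of 0.00364, while edgeR gave an adjusted p of 0.540. The call therefore rested on the tool. Among alternatives, the limma log2FC was 2.31 with a pseudocount of 10 and between 2.70 and 3.52 when each library was left out. It was 3.46 in the 4 libraries with a high W-linked sum and 2.67 in the 4 libraries with a high blood sum. RefSeq places a protein-coding gene, *LOC124418121*, over part of the span of *BMPR2*, so reads of both may not be fully separated. *BMPR2* is among the genes that the study selected on these same libraries, so its place here is not independent evidence.

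*ACVR2A*, a type II receptor for activins that also binds several BMPs, had lower values in interzone. Its normalized count was 303, 345 and 176 in interzone 1, 2 and 3, against 651, 552 and 492 in phalange 1, 2 and 3. Every phalange library lay above every interzone library, although the gap was narrow, with the lowest phalange library 1.43-fold above the highest interzone library. The means were 275 ± 87.9 in interzone and 565 ± 80.2 in phalange (SD, n = 3 each). The log2FC was -1.09 (SE 0.35, 95% interval -1.89 to -0.28, unadjusted p = 0.0136 and limma adjusted p = 0.595). DESeq2 on all genes gave an adjusted p of 0.173 and edgeR 0.730, so none of these tools called *ACVR2A*. When each library was left out, its log2FC stayed between -1.28 (without interzone 2) and -0.79 (without interzone 3, the lowest library). It was -1.08 in the 4 libraries with a high W-linked sum and -1.29 in the 4 libraries with a high blood sum.

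*ACVR2B*, the paralog of *ACVR2A* with overlapping ligands, had 4005, 934 and 3871 normalized counts in interzone 1, 2 and 3, against 1302, 1222 and 3014 in phalange 1, 2 and 3. Interzone 2 was the lowest of the 6 libraries and phalange 3 lay near the other interzone libraries, so the tissues overlapped. The log2FC was 0.53 (SE 0.58, 95% interval -0.78 to 1.84, limma adjusted p = 0.962). The fold range among the interzone libraries was 4.29, while the ratio of the tissue means was 1.59. Without interzone 2 the log2FC was 1.22. In the 4 libraries with a high W-linked sum it was -0.013 and in the 4 libraries with a high blood sum 0.99. Interzone 2 was also 1 of the 2 libraries with a low blood sum, while phalange 2, the other such library, lay close to phalange 1 with its high blood sum. The part of blood content in the level of *ACVR2B* was not tested. RefSeq places *EXOG* and *MIR6600* over part of the span of *ACVR2B*, and reads of overlapping genes may not be fully separated.

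*TGFBR2*, the type II receptor of TGF-beta, had 32.2, 54.7 and 15.1 normalized counts in interzone 1, 2 and 3, against 2.00, 70.3 and 27.8 in phalange 1, 2 and 3. The phalange libraries held both the lowest and the highest of the 6 values, and the lowest came from 2 reads. The means, 34.0 ± 19.9 in interzone and 33.3 ± 34.5 in phalange (SD, n = 3 each), differed by less than the spread within either tissue. The log2FC was 0.76 (SE 1.29, 95% interval -2.18 to 3.69, limma adjusted p = 0.982) and changed sign without phalange 1, to -0.55. It was -0.60 in the 4 libraries with a high W-linked sum and 1.31 in the 4 libraries with a high blood sum. In both tissues the library with the lowest blood sum (interzone 2 and phalange 2) had the highest *TGFBR2* value. Of the other receptors only *BMPR1B* had this pattern, and the part of blood content in it was not tested. The interval is wide enough to hold a large difference in either direction, so these libraries neither show nor exclude a difference in *TGFBR2*.

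Among the type I receptors, *BMPR1B*, the receptor bound with preference by GDF5, had 1084, 2822 and 429 normalized counts in interzone 1, 2 and 3, against 1680, 2898 and 1992 in phalange 1, 2 and 3. Interzone 2 reached the level of phalange 2, while interzone 1 and 3 lay below all phalange libraries. The fold range within interzone was 6.57, against 1.72 within phalange. The log2FC was -0.96 (SE 0.59, 95% interval -2.29 to 0.37, limma adjusted p = 0.897). It was -1.64 without interzone 2 and -0.29 without interzone 3. As for *TGFBR2*, the highest value of each tissue came from the library with the lowest blood sum, and in the 4 libraries with a high blood sum the log2FC was -1.42. In the 4 libraries with a high W-linked sum it was -1.13. The part of blood content in this pattern was not tested.

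*BMPR1A*, the broadly used BMP type I receptor, had 40.2, 42.3 and 9.41 normalized counts in interzone 1, 2 and 3, against 3.99, 0 and 29.7 in phalange 1, 2 and 3. Interzone 3 lay below phalange 3, so the tissues overlapped. No read was counted in phalange 2, for which the floor used here is 3 reads or 3.15 normalized counts (the exact two-sided 95% Poisson limit is 3.69 reads), and phalange 1 held 4 reads. The means were 30.7 ± 18.4 in interzone and 11.2 ± 16.1 in phalange (SD, n = 3 each). The log2FC was 2.31 (SE 1.51, 95% interval -1.12 to 5.74, limma adjusted p = 0.908). It depended on how the low values were treated, with 1.45 in DESeq2 on all genes (adjusted p = 1.00), and 1.07 with a pseudocount of 10. Leaving out each library gave values from 1.10 without phalange 2 to 3.57 without phalange 3. In the 4 libraries with a high W-linked sum the log2FC of *BMPR1A* was 1.94, and in the 4 libraries with a high blood sum it was 0.74.

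*TGFBR1*, the type I receptor of TGF-beta, had 516, 747 and 200 normalized counts in interzone 1, 2 and 3, against 553, 427 and 659 in phalange 1, 2 and 3. The interzone libraries held the lowest and the highest value, and all phalange libraries lay between them. Its log2FC of -0.34 (SE 0.48, 95% interval -1.43 to 0.75, limma adjusted p = 0.974) turned to 0.21 without interzone 3. It was -0.46 in the 4 libraries with a high W-linked sum and -0.91 in the 4 libraries with a high blood sum. Interzone 3 was the lowest of the 6 libraries for *TGFBR1*, for *BMPR1B* and for *ACVR2A*.

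*ATVR1* is the symbol under which RefSeq lists the chicken gene with the synonym *ACVR1*, a type I receptor of BMPs and activins. It was not counted among the receptors above, since it was matched by this synonym. It had 926, 1098 and 565 normalized counts in interzone, against 879, 868 and 726 in phalange, with a log2FC of 0.02 (SE 0.30, 95% interval -0.66 to 0.70, limma adjusted p = 1.00). The interval leaves room for a difference of less than 1 on the log2 scale, which makes this type I receptor the one with the narrowest limits here. RefSeq places *ACVR1C* and *UPP2* over part of the same span, and the strand of the counting is not given in the sources used here, so the same limit holds here.

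*TGFBR3*, also called betaglycan, is a co-receptor without a kinase that presents TGF-beta to its receptors and also binds inhibin. It had 24.1, 1.03 and 30.1 normalized counts in interzone 1, 2 and 3, against 16.0, 55.6 and 58.4 in phalange 1, 2 and 3. Phalange 2 and 3 lay above all interzone libraries, phalange 1 lay below interzone 1 and 3, and the value of interzone 2 came from 1 read. The log2FC was -1.72 (SE 1.28, 95% interval -4.64 to 1.20, limma adjusted p = 0.926), and it was -0.46 without interzone 2. In the 4 libraries with a high W-linked sum it was -2.87 and in the 4 libraries with a high blood sum -0.18. RefSeq places long noncoding RNAs over part of the spans of *TGFBR3* and *TGFBR1*.

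**Figure D2:**
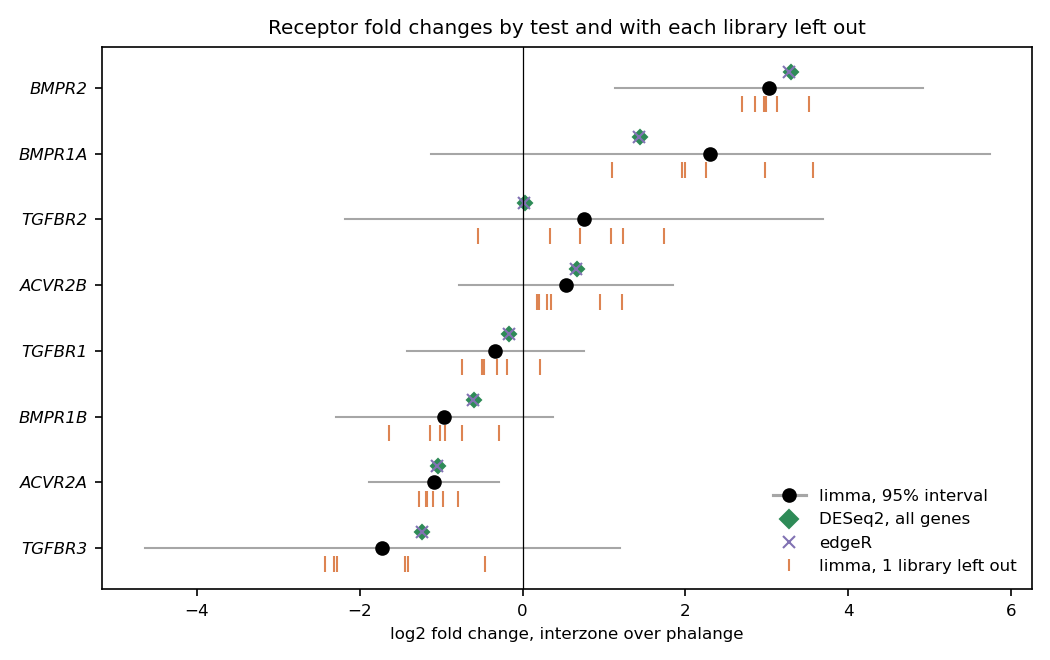
Log2 fold change of interzone over phalange (x axis) for each receptor (rows). Black points and grey lines give limma with its 95% interval, diamonds DESeq2 on all genes, crosses edgeR, and orange ticks limma with 1 library left out. The intervals of *BMPR2* and *ACVR2A* do not reach 0, and ticks of *TGFBR1* and *TGFBR2* lie on both sides of it.

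Replicates of a tissue varied more for most receptors than for the typical gene. The SD between libraries of the same tissue, on the scale of log2(normalized count + 1), had a median of 0.593 over all tested genes, and 7 of the 8 receptors were above it. This SD was larger for genes with low counts, with a median of 1.54 for genes with a mean from 10 to 100 and 0.427 for genes with a mean of at least 100. Among the receptors with a mean of at least 100, the SD was 1.00 for *BMPR1B*, 0.99 for *ACVR2B* and 0.73 for *TGFBR1*, all above the median of 0.427 for such genes, and 0.39 for *ACVR2A*, below it. Among the receptors with a lower mean, *BMPR2* had the smallest SD, 0.63, below the median of 1.54 for such genes. *BMPR1A*, *TGFBR2* and *TGFBR3* had 1.93, 1.78 and 1.71, above that median. The receptors did not move in a common direction between the tissues, with 4 log2FC above 0, 4 below 0 and a median of 0.10, against 49.9% of all tested genes above 0 and a median of -0.00076.

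Ratios of receptors within a library do not depend on its size factor, and a change in such a ratio between tissues does not depend on the lengths of the transcripts. Ratios were set for 4 pairs of receptors that share ligands or a complex. The ratio of *BMPR2* over *ACVR2A*, the type II receptors whose tissues did not overlap, was 0.145, 0.404 and 0.631 in interzone 1, 2 and 3, against 0.0138, 0.0171 and 0.0233 in phalange 1, 2 and 3. All interzone libraries lay above all phalange libraries, which follows from the values of the 2 genes given above, so the test of this ratio is no further support. The difference of the mean log2 ratios was 4.24, which is 18.8-fold (p = 0.1 in a two-sided exact permutation test, which is the lowest possible here, and 0.2 when adjusted over the 4 pairs). When each library was left out the difference stayed between 3.77 and 4.84, and with a pseudocount of 10 it was 3.37. Within the 4 libraries with a high W-linked sum it was 4.66 and within the 4 libraries with a high blood sum 4.07.

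The ratio of *BMPR1B* over *BMPR1A*, the BMP type I receptors, was 26.96, 66.7 and 45.6 in interzone 1, 2 and 3. In phalange 1 and 3 it was 421 and 67.1, and in phalange 2, where *BMPR1A* had no read, it was at least 921 with *BMPR1A* set to the floor of 3 reads. The tissues did not overlap, but interzone 2 and phalange 3 differed by far less than the counting error of their 41 and 31 reads of *BMPR1A*. The difference of the mean log2 ratios was -2.77 with this bound (two-sided exact permutation test, p = 0.1, adjusted p = 0.2). It ranged from -3.84 to -1.95 when each library was left out. With a pseudocount of 10 it was -2.02 and the tissues overlapped (two-sided exact permutation test, p = 0.2).

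For *ACVR2B* over *ACVR2A*, the activin type II receptors, the ratio was 13.2, 2.71 and 22.0 in interzone, against 2.00, 2.21 and 6.12 in phalange. Interzone 2 lay below phalange 3, and the difference of 1.62 on the log2 scale was not beyond the spread between libraries (two-sided exact permutation test, p = 0.2, adjusted p = 0.267). For *TGFBR2* over *TGFBR1*, the chains of the TGF-beta receptor, the interzone libraries were alike with ratios of 0.0623, 0.0732 and 0.0755, while the phalange libraries spread from 0.00361 in phalange 1 to 0.165 in phalange 2 around 0.0422 in phalange 3. The log2 difference of 1.26 was within that spread (two-sided exact permutation test, p = 0.7, adjusted p = 0.7) and turned to -0.25 without phalange 1.

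**Figure D3:**
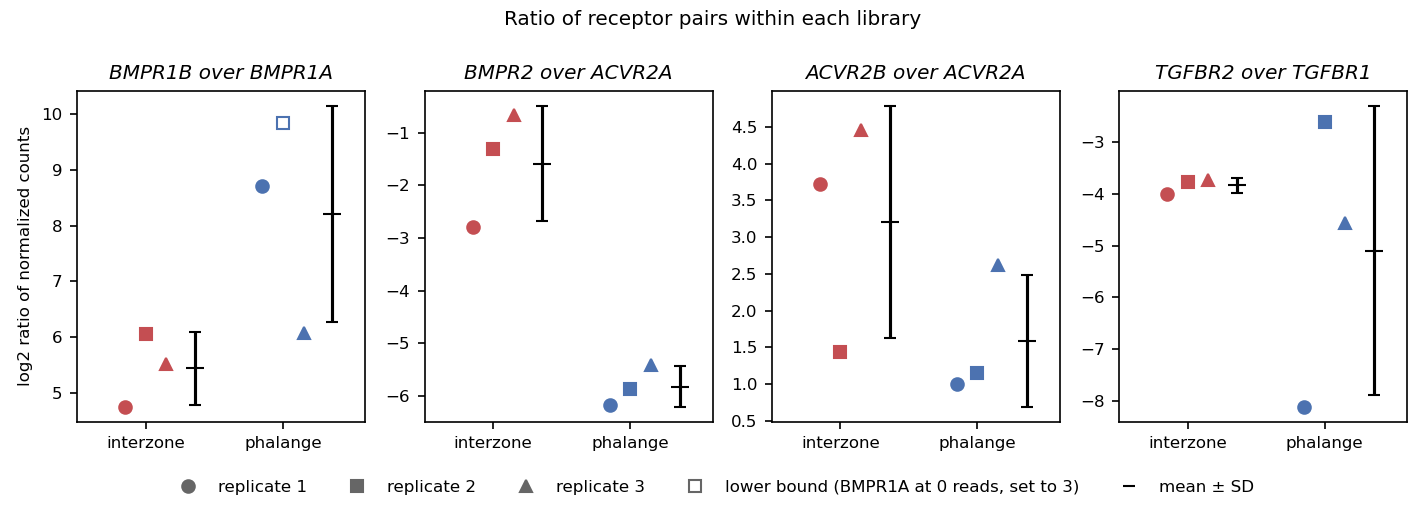
Log2 ratio of the normalized counts of 2 receptors in the same library (y axis, different in each panel) for 4 pairs, by tissue, with the mean ± SD (n = 3). The open square is a lower bound, since *BMPR1A* had no read in phalange 2. For *BMPR2* over *ACVR2A* the interzone libraries lie between -2.79 and -0.66 and the phalange libraries between -6.18 and -5.42.

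The other genes of the pathway were taken from 6 lists of 88 symbols, of which 67 were in the table and 58 were tested. None of the 58 was called by limma, and DESeq2 on all genes called 9, all with a positive log2FC, against 0.726% of all genes called higher and 0.382% called lower in interzone. The libraries did not overlap for 17 of the 58 with the higher values in interzone, against 5.86% of all tested genes, and for 3 with the higher values in phalange, against 5.11%. The median log2FC was 0.45. Several of these genes were selected by the study on the same libraries, and the lists were drawn up with earlier results known, so these counts describe the lists and are not independent evidence. Some markers of other cell types also had higher values in interzone. All 6 tested skeletal muscle genes had a log2FC above 0 (median 1.86). The tissues did not overlap for 2 of them, *MYL1* and *TNNT3*, against 5.86% of all tested genes with higher values in interzone. *MYL1* had 1064, 352 and 953 normalized counts in interzone, against 250, 25.2 and 14.4 in phalange. Of the 4 tested epidermal genes, 3 had a log2FC above 0. The tissues did not overlap for 1 of them, *EPCAM*, an epithelial marker, against the same 5.86%. *EPCAM* had 113, 91.9 and 171 in interzone, against 13.0, 68.2 and 11.5 in phalange. *KRT14* had a log2FC of -0.59, and the tissues overlapped for *KRT14*, *CDH1* and *TP63*. Of the tested genes of other lists, all 6 blood genes had a log2FC above 0 (median 1.41), with overlapping tissues. A log2FC above 0 was also found for 2 of 3 nerve and Schwann cell genes (median 2.61) and 4 of 5 tendon and fibrous tissue genes (median 0.20). Endothelium and macrophages leaned the other way, with 1 of 7 endothelial genes (median -0.44) and 2 of 5 macrophage genes (median -0.41) above 0. Over all tested genes the share above 0 was 49.9%. DESeq2 called 1 gene of these lists, *TNC* of tendon and fibrous tissue, against 0.726% of all genes called higher in interzone. *TNC* had 527, 486 and 928 normalized counts in interzone, against 228, 173 and 277 in phalange (DESeq2 adjusted p = 0.0147). The tissues did not overlap for *TNC*, against 5.86% of all tested genes with higher values in interzone. For *MKX* of that list the tissues did not overlap in the other direction, against 5.11% of all tested genes. Limma called none of these markers, and *MYOG* was at 0 in interzone 2, phalange 2 and phalange 3. The part of muscle, epidermis or any other of these cell types in the pathway values was not tested.

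Among 6 tested co-receptors and other receptors, 2 had a log2FC above 0 and the median was -0.28. For 1 of the 6 genes the tissues did not overlap, against 11.0% of all tested genes. This was *BAMBI*, a decoy receptor without a kinase that binds BMP and TGF-beta receptor complexes. It had 71.5, 41.3 and 269 normalized counts in interzone, against 13.0, 18.9 and 0 in phalange, a log2FC of 3.85 (SE 1.35, limma adjusted p = 0.632 and 0.168 by DESeq2 on all genes). The activin and nodal type I receptors *ACVR1B* and *ACVR1C*, also named after their values were seen, were below the filter. *ACVR1B* had no read in phalange and 0, 14.5 and 1.88 normalized counts in interzone, and *ACVR1C* had 13.4 in interzone 1 and no read in the other 5 libraries.

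Of 11 tested BMP and GDF ligands, 6 had a log2FC above 0 (median 0.38) and 3 were called by DESeq2, namely *GDF5*, *BMP2* and *BMP6*, against 0.726% of all genes. *BMP2*, a BMP that binds both BMP type I receptors, had 1631, 4546 and 648 normalized counts in interzone, against 476, 128 and 240 in phalange (log2FC 2.78, standard error 0.70, limma adjusted p = 0.454 and 0.00158 by DESeq2). *BMP6* had 30.4, 115 and 47.1 normalized counts in interzone and 0, 2.10 and 0 in phalange. For *GDF5*, the ligand with a preference for *BMPR1B*, the log2FC was 2.59 (SE 0.41, limma adjusted p = 0.119). The receptor itself had a log2FC of -0.96 (SE 0.59, 95% interval -2.29 to 0.37, limma adjusted p = 0.897) with overlapping tissues. A difference of *BMPR1B* between the tissues, in either direction, was thus not shown.

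Of the 6 tested TGF-beta and activin ligands and latency proteins, all had a log2FC above 0, with a median of 2.07, and the tissues did not overlap for 5, against 5.86% of all tested genes with higher values in interzone. DESeq2 called *INHBB*, *LTBP2*, *LTBP1* and *TGFB2*, against 0.726% of all genes. *INHBB*, which encodes the beta B subunit of activin, had 323, 1347 and 184 normalized counts in interzone, against 0, 0 and 2.87 in phalange (limma adjusted p = 0.0695). *LTBP2*, a matrix protein related to those that store latent TGF-beta, had 1146, 929 and 947 normalized counts in interzone, against 234, 108 and 121 in phalange (log2FC 2.78, standard error 0.37, limma adjusted p = 0.0695). *LTBP1*, which binds latent TGF-beta, had a log2FC of 0.91 (SE 0.19, limma adjusted p = 0.249), and *TGFB2* one of 1.35 (SE 0.40, limma adjusted p = 0.519).

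Of 10 tested extracellular antagonists, 6 had a log2FC above 0 (median 0.32). DESeq2 called 2 of the list with higher values in interzone, against 0.726% of all genes. *CHRDL2*, a chordin-like protein that binds BMPs, had 2696, 6374 and 482 normalized counts in interzone, against 8.98, 122 and 102 in phalange. *FSTL1*, a follistatin-like glycoprotein, had 35606, 36638 and 14789 in interzone, against 11947, 11552 and 7139 in phalange. Their adjusted p by limma was 0.263 and 0.454. The tissues did not overlap for 3 genes of this list with higher values in interzone (*CHRDL2*, *FSTL1* and *BMPER*), against 5.86% of all tested genes. In the other direction there was 1 gene, against 5.11% of all tested genes. This was *GREM1*, a BMP antagonist named here after its values were seen. It had 29.5, 0 and 28.2 normalized counts in interzone, against 52.9, 31.5 and 57.4 in phalange, and it was called by neither limma nor DESeq2.

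Downstream of the receptors, 13 of 16 tested Smads and intracellular regulators had a log2FC above 0 (median 0.52), and none was called by limma or DESeq2. *PMEPA1*, a TGF-beta target that limits SMAD2 and SMAD3 signaling, had 269, 198 and 191 normalized counts in interzone, against 65.9, 86.0 and 101 in phalange (log2FC 1.37, standard error 0.45, limma adjusted p = 0.595). *SKI*, a Smad corepressor, had a log2FC of 0.73 (SE 0.25, limma adjusted p = 0.621). Of 9 tested Smad response genes, 3 had a log2FC above 0 (median -0.15). *MSX1*, a homeobox gene that responds to BMP, had 7919, 9265 and 6272 normalized counts in interzone, against 10786, 15313 and 10782 in phalange, a log2FC of -0.65 (SE 0.21, limma adjusted p = 0.595). *TGFBI*, a matrix protein induced by TGF-beta, had a log2FC of 1.50 (SE 0.54, limma adjusted p = 0.653) with overlapping tissues, and *HEY1* one of 1.44 (SE 0.63, limma adjusted p = 0.772). The BMP targets *ID1*, *ID2*, *ID3* and *ID4*, chosen for mention after their values were seen, all had overlapping tissues and a log2FC between -0.89 and -0.10. Of the same list, *MSX2* had a log2FC of 1.61 (SE 0.88) and *DLX5* one of -0.76 (SE 0.73), both with overlapping tissues.

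**Figure D4:**
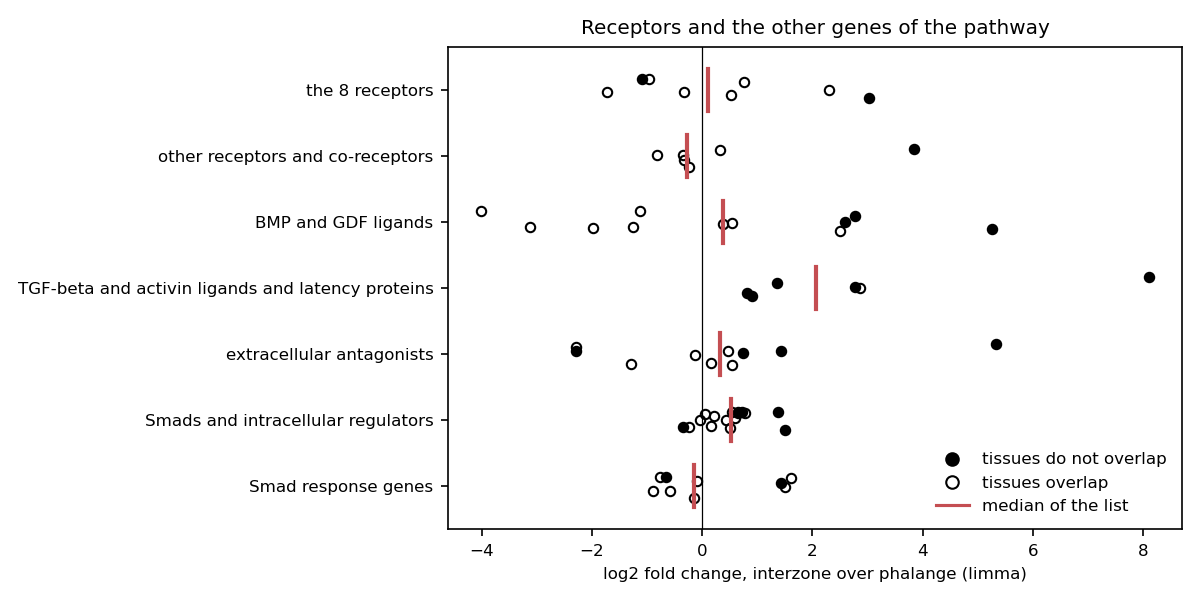
Log2 fold change of interzone over phalange by limma (x axis) for the 8 receptors and the tested genes of 6 pathway lists (rows). Filled points are genes whose tissues do not overlap, and red bars are medians of the lists. The receptors lie on both sides of 0, and all 6 TGF-beta and activin ligands and latency proteins lie above 0.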

How the data were processed

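RNA-seq was made by Smart-seq2 (18 cycles of cDNA amplification, 14 of library PCR). The authors aligned the reads with STAR, counted them with featureCounts on an Ensembl annotation and deposited normalized counts, a signal in which reads are divided by a DESeq2 size factor. Whether counting used strand is not given in the sources used here. Dividing each library's values by its smallest step gave back whole reads (tolerance 0.001).

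Genes with a mean of at least 10 were tested with limma 3.58.1 (R 4.3.3) on log2(normalized count + 1), where the fold changes of low genes depend on the pseudocount, and called at a Benjamini-Hochberg adjusted p of 0.05 and a log2FC beyond 0.5. Log2FC is interzone minus phalange. edgeR 4.0.16 and DESeq2 1.42.0 on the recovered reads were alternatives, beside another pseudocount, another filter, a replicate block and leaving out libraries. The adjusted p-values cover all tested genes, and the fits were also run on simulated data. The simulated reads had the same dispersion for every gene, so they did not copy the differences in spread between genes seen in these libraries. They therefore do not show how the fits perform at the spread of these receptors. Ratios of receptors used no pseudocount, and *BMPR1A*, at 0 in phalange 2, was set to 3 reads there as a bound. This floor was chosen after seeing the data, as were the fits on 4 libraries.

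The receptors and lists were chosen with earlier results of these data known. From each list, up to 3 genes with the smallest limma p under 0.05 and any called gene were named, and for each receptor the 3 genes most like it across libraries. The genes most like *BMPR1A* are not reported here. The peak lists of histone marks were not used here.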

Additional observations from a re-analysis of the deposited data

How the results depend on the processing

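The sign of the log2FC was the same in every alternative run for 5 receptors (*BMPR1A*, *BMPR1B*, *BMPR2*, *ACVR2A*, *TGFBR3*) and turned in some for the other 3. Leaving out each library gave -0.74 to 0.21 for *TGFBR1*, which turned to 0.21 without interzone 3, and -0.55 to 1.74 for *TGFBR2*. *TGFBR2* turned to -0.55 without phalange 1 and to -0.60 in the 4 libraries with a high W-linked sum, and *ACVR2B* turned to -0.013 in those 4 libraries. The ratio of *TGFBR2* over *TGFBR1* ranged from -0.25 to 2.51 when each library was left out and was -0.16 in the 4 libraries with a high W-linked sum. The cause was not tested. The number of receptors called higher in interzone was 0 with limma, stayed 0 when each library was left out, and was 1 (*BMPR2*) with DESeq2 on filtered genes (adjusted p = 0.0221) and on all genes. Over all alternatives the adjusted p of *BMPR2* was between 0.00364 and 1. Of all genes, limma called 0 higher in interzone, against 1 with a pseudocount of 10, 2 with a mean of at least 100, 104 with DESeq2 on filtered genes, 116 with DESeq2 on all genes, and 0 to 5 when each library was left out, with 5 without phalange 1. Limma called 3 higher in phalange, against 5 with a pseudocount of 10, 5 with a mean of at least 100, 1 with edgeR, 48 and 61 with DESeq2 on filtered and all genes, 0 to 4 when each library was left out, and 0 in both sets of 4 libraries. Of the pathway genes, limma called 0 higher in interzone, against 1 with a mean of at least 100, 9 with both DESeq2 fits, and 0 to 1 when each library was left out. *BMPR1A*, *BMPR2*, *TGFBR2* and *TGFBR3* could not be tested with a mean of at least 100, and their low read numbers limit their precision.

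The labels number the replicates of both tissues. Same-numbered libraries correlated in their deviations by 0.19, 0.08 and -0.02, against -0.14 to 0.07 for libraries with unlike numbers. These correlations do not settle whether the numbers are pairs, and the main fit did not take them as pairs. The libraries with a low W-linked sum were number 1 in both tissues and those with a low blood sum number 2, and the sources used here do not say whether same-numbered libraries share embryos. With the number as a replicate block, limma called 1 gene higher in phalange and 0 receptors, and *BMPR2* had an adjusted p of 0.550.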

Other observations

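The table holds a separate gene with the symbol *TGFBR2L*, which was not chosen by the symbols above and was noticed after its values were seen. It had 179, 1.03 and 209 normalized counts in interzone 1, 2 and 3, against 87.9, 133 and 184 in phalange 1, 2 and 3. Interzone 2 stood apart with 1 read, while the other interzone libraries lay near phalange 3.

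The genes most like a receptor were those with the highest Pearson correlation of log2 values over the 6 libraries, among 10171 genes with a symbol. All points share these libraries, and with so few of them many genes come close to any receptor. For *BMPR2* they were *NOXA1*, *ABCD2* and *PI16* (r = 0.995, 0.988 and 0.985), and 92 genes exceeded 0.9. For *ACVR2A* they were *CA2*, *CFAP20* and *TRPV4* (r = 0.987, 0.983 and 0.978), and 96 genes exceeded 0.9. *BMPR1B* was closest to *GNB5*, *SYTL2* and *BCS1L*, *ACVR2B* to *KLHL32*, *LRRTM1* and *NUTF2*, *TGFBR1* to *NINJ2*, *RAB11FIP1* and *KLHL17*, *TGFBR2* to *GCNT1*, *NFE2L1* and *METTL24*, and *TGFBR3* to *DYRK2*, *RSPO3* and *CENPW*.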
